A study of Mus musculus with 6 samples.

Results

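Synpo and 43 other genes of actin filaments and their contraction were followed in cultured mouse retinal pigment epithelium (RPE) that had or had not been fed photoreceptor outer segments (POS). The genes were chosen by name: Synpo because it differed between fed and unfed cells in this table, the others for their known roles in the actin cytoskeleton, with earlier results of these data at hand. All 44 were found among the 12556 genes of the deposited table. Because of that choice, the fold changes of the 44 between fed and unfed cells are given as a description with their errors, and no member is put to a test of its own. The cultures were primary RPE of C57BL/6J mice aged 10 to 12 days, kept for 5 to 6 days on porous inserts (0.4 µm). The POS-challenged group (3 libraries, titled Trt) had received mouse POS membranes at about 10 per RPE cell for 1.5 h. The unchallenged group (3 libraries, titled Veh) had received none, and whether it was given a vehicle is not stated. Each well held the RPE of about 1 eye, no transgene or other agent is named for either group, and poly(A) RNA was sequenced. The libraries are labelled biological replicates, and no source used here says whether they came from separate litters or days, so p-values measure the spread between these libraries.

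Actin is kept in cells as monomers and as filaments, and filaments are bundled by alpha-actinins, coated by tropomyosins and pulled on by non-muscle myosin II. RhoA and its kinases ROCK switch on myosin II, and a falling monomer pool releases cofactors that let the transcription factor SRF act on actin genes. In the RPE, actin fills the apical microvilli that wrap outer segments, forms the cup that engulfs them and makes the belt at cell junctions. Dissociated RPE in culture can also take up stress fibres and smooth muscle type actin.

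Levels are normalized read counts, which are reads divided by a size factor of the library. Depth, as total reads of the table, lay between 24869273 and 30420028. The 10 most abundant genes held 8.23% of the counts in POS-challenged replicate 3 and 10.7% to 11.0% in each of the others. The part of this difference in the values of the members was not tested. POS-challenged replicate 3 held the lowest value of 28 of the 44 and unchallenged replicate 1 that of 12, against 28.8% and 20.4% of all genes. Unchallenged replicate 1 also held the highest value of 12 of the 44, against 2574 of all 12556 genes, and POS-challenged replicate 3 that of 2. Low values in POS-challenged replicate 3 were not particular to the members. Among the further actin genes listed below it was lowest for 13 of 19 nucleators and other Arp2/3 genes and 15 of 22 genes of capping, severing and monomer binding, but for 5 of 17 further contractile genes. The label was checked against RPE markers, of which 11 of 12 were measured and Best1 was not analysed here. Their summed level was 51174, 45281 and 30967 normalized counts in POS-challenged libraries 1, 2 and 3, and 33508, 44766 and 45785 in unchallenged replicates 1, 2 and 3, so it was lowest in the same pair of libraries. Within that list the pigment enzyme gene Tyr stood at 15831 to 26214 in POS-challenged and 16469 to 25494 in unchallenged libraries. The visual cycle gene Rpe65 stood at 121 to 207 in POS-challenged and 103 to 167 in unchallenged libraries. In such whole cultures, fewer cells of a type and less RNA per cell cannot be told apart.

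Synpo codes for synaptopodin, a protein that binds alpha-actinin and bundles actin, best known from kidney podocytes and dendritic spines. It had 12078, 10881 and 11169 normalized counts in POS-challenged libraries 1, 2 and 3, against 6025, 6599 and 7137 in unchallenged replicates 1, 2 and 3. The groups did not overlap, and the lowest challenged library was 1.52 times the highest unchallenged one. Its log2 fold change on the log2(count + 1) scale, challenged over unchallenged, was 0.79 ± 0.09 (SE, n = 3 per group), or 1.73-fold. Upward fold changes of at least this size were found for 60 of the 12556 genes, and for Synpo alone among the 1048 genes with a mean of at least 5000 normalized counts. In either direction, 6 of the 1048 changed by at least this much. These ranks describe the difference for which Synpo was chosen. The value that chose it was a limma adjusted p of 0.0417, and in the authors' deposited table its log2 fold change was 0.73 with an adjusted p of 4.66e-12. Left out 1 at a time, the libraries moved its log2 fold change between 0.73 and 0.85. The limma adjusted p stayed under 0.05 without unchallenged replicate 2 (0.0311) and lay between 0.0579 and 0.267 without any of the other 5. These fits reuse the libraries that chose Synpo, so they describe its dependence on single libraries and are no separate test. Synpo (Entrez Gene 104027) spans 60593981 to 60660173 on chromosome 18 of GRCm38.p6, its exons overlap those of no other gene in GENCODE M21, and none of its 36-base stretches recurs in another gene's transcripts.

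**Figure D1:**
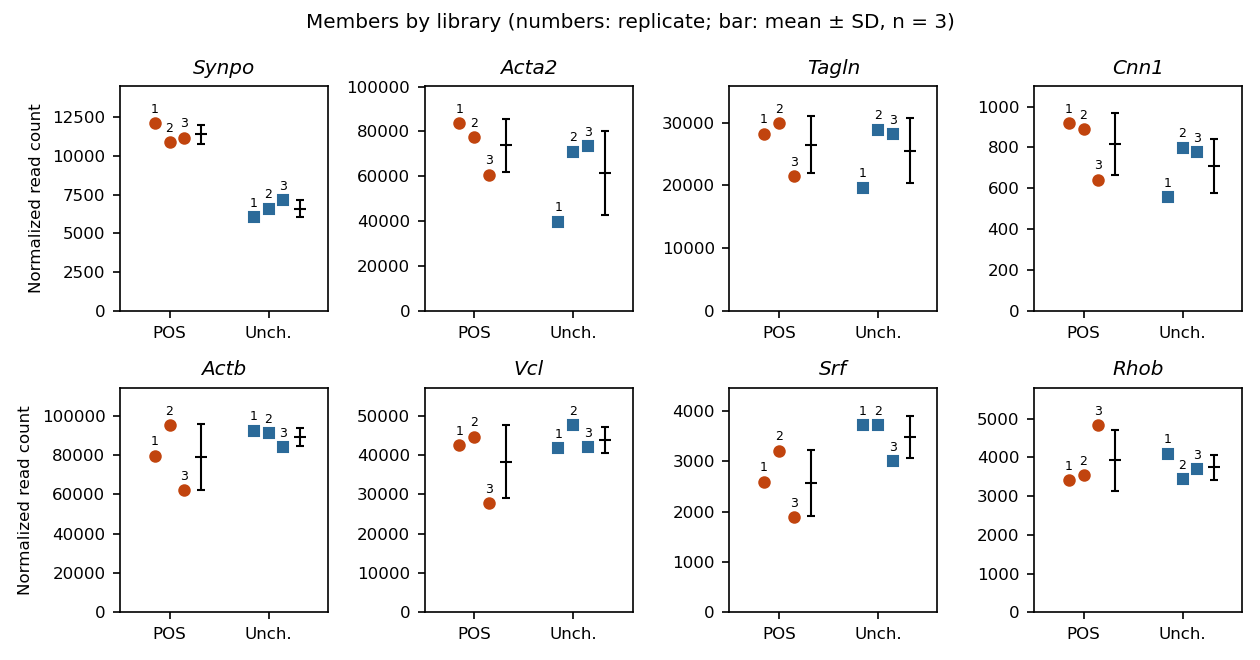
Normalized read counts of 8 members in each library; circles are POS-challenged libraries (POS), squares unchallenged libraries (Unch.), small numbers the replicates and bars the mean ± SD of 3. Synpo separates the groups (10881 to 12078 against 6025 to 7137), while Acta2, Tagln and Cnn1 are lowest in unchallenged replicate 1 and Actb, Vcl and Srf in POS-challenged replicate 3.

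Markers of other cell types are given here beside Synpo. Of 12 photoreceptor markers, Sag, the rod arrestin gene, was measured and the other 11 were not analysed here. Sag had 924, 987 and 578 normalized counts in POS-challenged libraries and 17.9, 26.6 and 21.1 in unchallenged ones. Only the POS-challenged cultures had been given photoreceptor outer segments. RNA brought in with that material and RNA of cells in the culture cannot be told apart here. The 9 measured of 12 smooth muscle and pericyte markers summed to 7488 to 7984 in POS-challenged and 6894 to 7419 in unchallenged libraries, which did not overlap. Log2 fold changes were positive for 5 of the 9 and negative for 4 (Smtn, Des, Notch3 and Myh11), and limma called 0 of them. The most abundant pair went opposite ways without overlap. Pdgfrb, a receptor gene of pericytes and mesenchymal cells, had 1924 to 2185 in POS-challenged and 1531 to 1613 in unchallenged libraries (limma adjusted p = 0.240; 0.0176 in the authors' deposited table). Smtn, the smoothelin gene, had 1049 to 1188 in POS-challenged and 1267 to 1925 in unchallenged libraries (limma adjusted p = 0.416). Among 9 fibroblast markers, all measured, Pdgfra had 1199 to 2154 in POS-challenged and 710.0 to 1058 in unchallenged libraries (limma adjusted p = 0.252; 0.00334 in the authors' deposited table). That list, with 4 positive and 5 negative log2 fold changes, summed to 61705 to 79902 in POS-challenged and 70365 to 94805 in unchallenged libraries. The 2 measured of 10 skeletal muscle markers summed to 371 to 779 in POS-challenged and 329 to 476 in unchallenged libraries. For 3 of 6 endothelial markers the sums were 264 to 317 in POS-challenged and 259.8 to 308 in unchallenged libraries, and for 6 of 9 macrophage markers 985 to 1335 in POS-challenged and 1170.4 to 1331 in unchallenged libraries. All 3 sums overlapped between the groups. The part of these cells in the Synpo difference was not tested.

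None of the other 43 members passed the threshold of an adjusted p of 0.05 over all genes. By limma 1 of the 44 was called, Synpo itself, where 0.0956% of all 12556 genes were called (0.0637% as higher and 0.0319% as lower). By edgeR, by DESeq2 and in the authors' deposited table it was again 1 of the 44 and 0 of the other 43. There, 0.0876%, 2.73% and 2.55% of all genes with an adjusted p were called (0.871% as higher and 1.68% as lower in the authors' deposited table). Genes with an adjusted p numbered 12556, 12067 and 12056. Srf was the only one of the 43 with an unadjusted limma p under 0.05, which 11.5% of all genes had, and its adjusted p of 0.417 was the lowest of the 43. Values of POS-challenged and unchallenged libraries did not overlap for 2 members that were higher (Synpo and Rdx) and 4 that were lower (Cfl1, Arpc2, Tpm3 and Myl12b), where 9.56% and 10.4% of all genes did so. The log2 fold change was negative for 30 of the 44, with a median of -0.05, against 0.007 over all genes. The count could not change with the replicate block or with no filter, since the fold changes are the same there. It was 29 of the 44 by edgeR and 30 by DESeq2, in the authors' deposited table and with the other pseudocounts. It ranged from 20 to 35 with each library left out, the lowest (median 0.02) when POS-challenged replicate 3 was left out and the highest when unchallenged replicate 1 was. With quantile normalization 16 were negative, and the median was 0.034, against 0.030 over all genes.

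**Figure D2:**
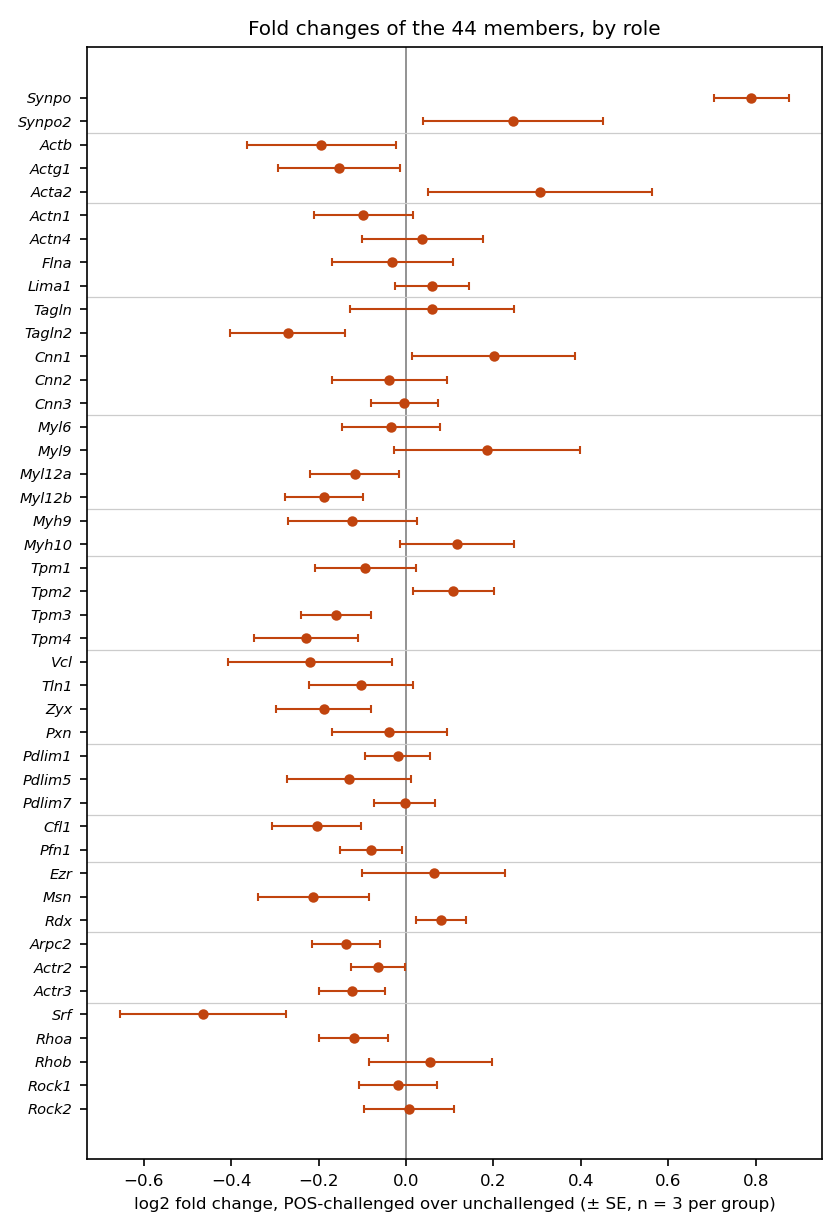
Log2 fold changes of the 44 members, POS-challenged over unchallenged, with standard errors from limma (n = 3 per group); grey lines part the roles. Synpo stands at 0.79 and the other 43 lie between -0.46 (Srf) and 0.31 (Acta2).

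Synpo2, a relative of synaptopodin found at muscle Z-discs and stress fibres, was the least abundant member. It had 63.5, 60.1 and 48.4 normalized counts in POS-challenged libraries and 38.8, 54.3 and 52.1 in unchallenged ones. The groups overlapped, and the log2 fold change was 0.24 ± 0.21 (SE). Per kb of exon, Synpo made up 99.7% of the reads of the pair in POS-challenged and 99.5% in unchallenged cells.

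The actin genes differed in which library was low. Actb, the beta-actin gene of all non-muscle cells, had 79630.0, 95262 and 62088 normalized counts in POS-challenged libraries 1, 2 and 3, against 92273, 91024 and 83918 in unchallenged ones. Acta2, the smooth muscle alpha-actin gene, had 83524, 77380.5 and 60606 in POS-challenged replicates, against 39749, 70972 and 73492 in unchallenged ones. Beta-actin was thus lowest in POS-challenged replicate 3, and smooth muscle actin in unchallenged replicate 1, where it stood 0.86 log2 units under the mean of the other 2 unchallenged libraries. Log2 fold changes were -0.19 ± 0.17 for Actb and 0.31 ± 0.26 for Acta2. As a share of actin reads per kb, Acta2 made up 49.0%, 42.6% and 47.2% in POS-challenged libraries and 28.3%, 41.6% and 44.5% in unchallenged ones, and Actb nearly all of the rest. Actg1, the gamma-actin gene, took 1.58% to 1.71% in POS-challenged and 1.65% to 2.06% in unchallenged libraries. That share is uncertain, since 57.0% of the 36-base stretches of its transcripts recur in those of other genes, the pseudogene Actg-ps1 among them, compared with 28.9% for Actb and 1.05% for Acta2. No source used here gives the read length or says how reads with several matches were counted. More than 10% of the 36-base stretches recurred in other genes' transcripts for 12 of the 44 members. Among these were Actr3 (59.6%), Cnn3 (24.0%) and Tpm4 (15.1%), whose levels and shares below are uncertain in the same way. Actb lies on chromosome 5 from 142903115 to 142907976 and Acta2 on chromosome 19 from 34240336 to 34255585 of GRCm38.p6.

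The calponin family binds along actin filaments and, in smooth muscle, tempers contraction. Tagln, the gene of transgelin (SM22), had 28234, 29869 and 21434 normalized counts in POS-challenged libraries 1, 2 and 3, against 19667, 28895 and 28124 in unchallenged ones. Cnn1, the smooth muscle calponin gene, had 917, 888 and 642 in POS-challenged replicates, against 557, 798 and 775 in unchallenged ones. Both followed Acta2, with the low value in unchallenged replicate 1 and the next lowest in POS-challenged replicate 3, and log2 fold changes of 0.06 ± 0.19 and 0.20 ± 0.19. Tagln2, the non-muscle relative, had 4834, 5644 and 3932 in POS-challenged replicates, against 6169.7 (the highest value), 5501 and 5552 in unchallenged ones (-0.27 ± 0.13). Cnn2 and Cnn3, the calponins of non-muscle cells, had log2 fold changes of -0.04 ± 0.13 and -0.004 ± 0.08. Per kb, Cnn3 made up 69.2% ± 3.27 of calponin reads in POS-challenged and 69.0% ± 0.65 in unchallenged cells (SD, n = 3 each), and Cnn1 2.15% ± 0.26 and 1.86% ± 0.27.

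Without unchallenged replicate 1 and POS-challenged replicate 3, the log2 fold change of Synpo was 0.74 ± 0.07 (SE, n = 2 per group). It is a description only, since Synpo was chosen for its difference in this table and the libraries to leave out after their values were seen. In that fit 0 of the other 43 members were called, and the lowest limma adjusted p among them was 0.222 (Cnn1). RPE marker sums were lowest in the same pair of libraries, and their part in the low values of the contractile genes was not tested. The sum of the smooth muscle and pericyte markers, a list that holds none of the 44 members, was 7488 in POS-challenged replicate 3, the lowest of its group. It was 7419 in unchallenged replicate 1, the highest of its group. Smtn had 1925 in that library, against 1300 and 1267 in unchallenged replicates 2 and 3. Lmod1 went the other way, with 642 against 1352 and 1118. Single markers differed from the sum: of the 9 measured, 4 were lowest in unchallenged replicate 1 and 3 in POS-challenged replicate 3.

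**Figure D3:**
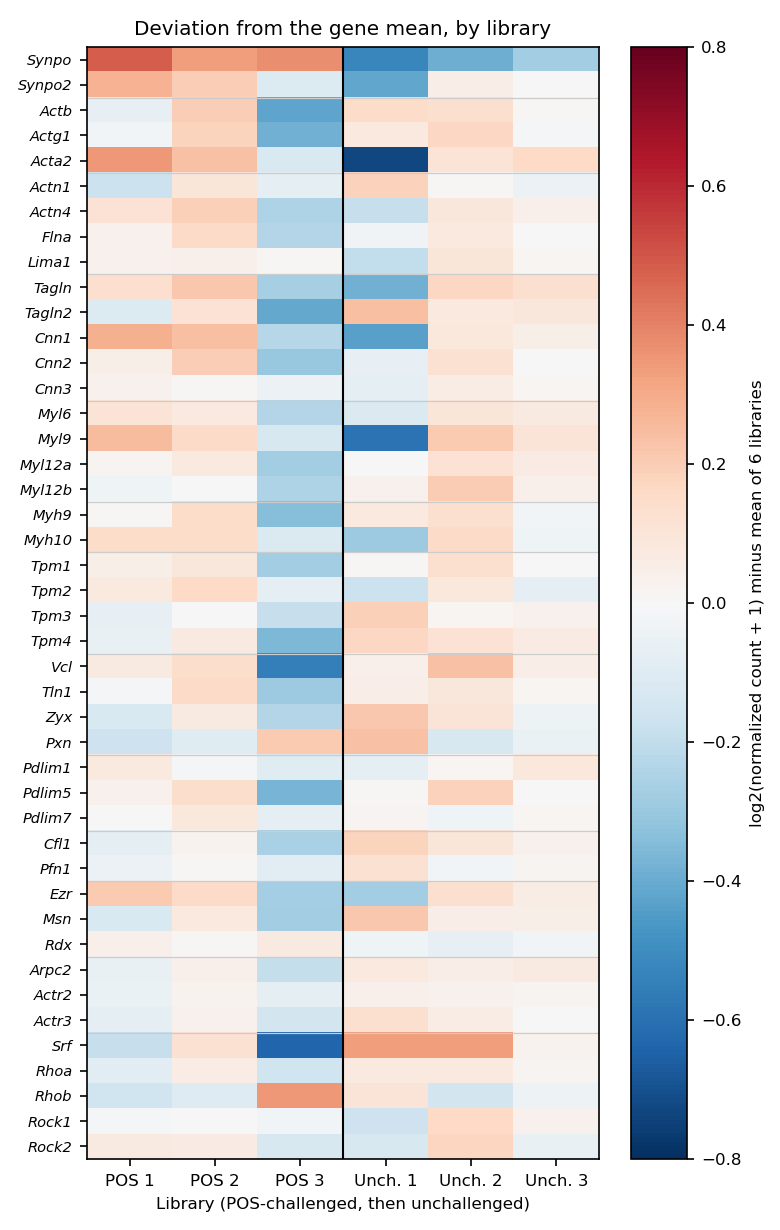
Each member's log2(normalized count + 1) in each library minus its mean over the 6 libraries, red above and blue below, with POS-challenged libraries (POS) left of the line and unchallenged ones (Unch.) right of it. POS-challenged replicate 3 is the lowest library for 28 of the 44 and unchallenged replicate 1 for 12, among them Acta2, Tagln, Cnn1 and Myl9. Unchallenged replicate 1 is also the highest library for 12.

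Myosin II is built of heavy chains, regulatory light chains and the essential light chain Myl6. Myh9, the heavy chain gene of non-muscle myosin IIA, had 65914, 72701 and 51775 normalized counts in POS-challenged libraries 1, 2 and 3, against 69132, 71551 and 64710.3 in unchallenged ones. Myh10, that of myosin IIB, had 8589, 8569 and 7153 in POS-challenged replicates, against 6327, 8638 and 7557 in unchallenged ones. The groups overlapped for both, with log2 fold changes of -0.12 ± 0.15 and 0.12 ± 0.13. Per kb, Myh9 made up 90.0% ± 0.71 of the pair in POS-challenged and 91.4% ± 1.15 in unchallenged cells (SD, n = 3 each). Myl9, the regulatory light chain gene of smooth muscle, had 3136, 2934 and 2407 in POS-challenged replicates, against 1749.5 (the lowest of the 6), 3046 and 2826 in unchallenged ones (0.19 ± 0.21). Its non-muscle relatives Myl12a and Myl12b neighbour each other on chromosome 17. Myl12b had 2358, 2401 and 2035 in POS-challenged replicates, against 2471, 2776 and 2480.5 in unchallenged ones, with no overlap (-0.19 ± 0.09). Myl12a overlapped between groups (-0.12 ± 0.10), as did Myl6 (-0.03 ± 0.11). Of the 36-base stretches of Myl12a and Myl12b, 30.9% and 33.4% recur in other genes' transcripts, each other's among them, so how reads were split between the pair is uncertain.

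Tropomyosins coat filaments and set which proteins may bind them. Tpm4, mainly a non-muscle form, made up 53.8% ± 1.05 of tropomyosin reads per kb in POS-challenged and 56.4% ± 1.10 in unchallenged cells (SD, n = 3 each), and Tpm1 30.9% ± 0.63 and 29.5% ± 1.12. Tpm4 had 20951, 22962 and 17028 normalized counts in POS-challenged libraries 1, 2 and 3, against 24443, 23631 and 22817 in unchallenged ones (-0.23 ± 0.12). Tpm3 had 4889, 5139 and 4512 in POS-challenged replicates, against 5840.1, 5169 and 5248 in unchallenged ones (-0.16 ± 0.08). Of the 4 genes, Tpm3 was the one whose groups did not overlap, with 5139 in the highest POS-challenged and 5169 in the lowest unchallenged library, and 68.1% of its 36-base stretches recur in other genes' transcripts. Tpm1 and Tpm2 had log2 fold changes of -0.09 ± 0.12 and 0.11 ± 0.09.

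Among bundlers and cross-linkers, Actn1, the alpha-actinin gene of stress fibres and adhesions, had 36672, 44234 and 39191 normalized counts in POS-challenged libraries 1, 2 and 3, against 46897, 41484 and 40008 in unchallenged ones. Actn4, the alpha-actinin gene that podocytes use, had 33132, 34902 and 25872 in POS-challenged replicates, against 26947, 32594 and 31492 in unchallenged ones. Alpha-actinins bind synaptopodin in podocytes, and neither gene separated the groups here (-0.10 ± 0.11 and 0.04 ± 0.14). Flna, the filamin A gene, which cross-links filaments into networks, and Lima1, the gene of the filament stabilizer EPLIN, had log2 fold changes of -0.03 ± 0.14 and 0.06 ± 0.08.

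Focal adhesion genes had negative log2 fold changes in 4 of 4, and in 3 of 4 with quantile normalization. Vcl, the vinculin gene, whose product ties actin to adhesions and junctions, had 42605, 44729 and 27763 normalized counts in POS-challenged libraries 1, 2 and 3, against 41745, 47677 and 42018 in unchallenged ones. Replicate 3 stood 0.65 log2 units under the other 2 POS-challenged libraries, the largest such gap among the members, and the fold change was -0.22 ± 0.19. Zyx, the gene of the tension sensor zyxin, had 15315, 17533 and 14162 in POS-challenged replicates, against 19380.4, 17922 and 16203 in unchallenged ones (-0.19 ± 0.11). Tln1, the gene of the integrin activator talin, and Pxn, the gene of the adhesion scaffold paxillin, had fold changes of -0.10 ± 0.12 and -0.04 ± 0.13. Pxn ran against most members, with its highest values in unchallenged replicate 1 (6207) and POS-challenged replicate 3 (6090.3) and 4695 to 5084 in the other 4 libraries. The LIM proteins Pdlim1, Pdlim5 and Pdlim7, which dock on alpha-actinin or tropomyosin, had fold changes of -0.02 ± 0.07, -0.13 ± 0.14 and -0.002 ± 0.07. The Vcl exons share 2090 bases with those of Ap3m1 on the opposite strand, and no source used here says whether counting used strand, so the level of Vcl is uncertain. Exons of 11 of the 44 members overlap those of other genes. On the opposite strand these include Tagln (877 bases with Gm48529), Actn1 (363 with Gm47766) and Rhoa (324 with Gm37401). Further ones are Actn4 (316 with Capn12) and Zyx (236 with Epha1).

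Genes of filament turnover had log2 fold changes between -0.20 and -0.06. Cfl1, the gene of the severing protein cofilin, had 27356, 29517 and 24161 normalized counts in POS-challenged libraries 1, 2 and 3, against 32665, 30840.1 and 29597 in unchallenged ones, with no overlap (-0.20 ± 0.10). Arpc2, a subunit gene of the branching Arp2/3 complex, had 9737, 10447 and 8874 in POS-challenged replicates, against 10710.3, 10508 and 10677 in unchallenged ones, also with no overlap (-0.14 ± 0.08). The complex's other members Actr2 and Actr3 (-0.06 ± 0.06 and -0.12 ± 0.07) and Pfn1, the gene of the monomer carrier profilin (-0.08 ± 0.07), overlapped between groups. With quantile normalization, 2 of the 3 Arp2/3 genes and 1 of the pair Cfl1 and Pfn1 kept a negative sign.

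Ezrin, radixin and moesin link actin to the plasma membrane, and ezrin builds the apical microvilli of the RPE. Ezr had 33991, 32685 and 24334 normalized counts in POS-challenged libraries 1, 2 and 3, against 24181, 32027 and 30611 in unchallenged ones. Msn had 53714, 61729 and 48125 in POS-challenged replicates, against 67853, 60588 and 60266 in unchallenged ones. Ezr was thus lowest, and Msn highest, in unchallenged replicate 1, and fold changes were 0.06 ± 0.16 and -0.21 ± 0.13. As a share of the 3 genes per kb, Ezr made up 29.0% in that library and 36.03% to 41.6% in the other 5. Rdx had 5109, 4997 and 5239 in POS-challenged replicates, against 4866, 4747 and 4900.1 in unchallenged ones. Its groups did not overlap, but the difference was small (0.08 ± 0.06).

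SRF drives many of these genes through a DNA element, the CArG box (CC, a run of A or T, then GG). Srf itself had 2598, 3207 and 1896 normalized counts in POS-challenged libraries 1, 2 and 3, against 3716, 3722 and 2999.7 in unchallenged ones. POS-challenged replicate 2 lay above unchallenged replicate 3, so the groups overlapped, and the log2 fold change was -0.46 ± 0.19. It was the most negative of the members in the fit of all 6 libraries. Upstream of the switch, Rhoa, the GTPase gene, had 11353 to 13181 in POS-challenged and 12824 to 13379 in unchallenged libraries (-0.12 ± 0.08). Rhob, an early response relative of Rhoa, had 3413, 3536 and 4836 in POS-challenged replicates, against 4092, 3434 and 3698 in unchallenged ones, and it was highest in the library where Srf was lowest (0.06 ± 0.14). The kinase genes Rock1 and Rock2 had fold changes of -0.02 ± 0.09 and 0.007 ± 0.10, and Rock2 made up 71.5% ± 1.51 of the pair's reads per kb in POS-challenged and 71.2% ± 1.00 in unchallenged cells (SD, n = 3 each).

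To show what Srf and the genes of similar promoters have in common, promoter windows of RefSeq (GRCm38.p6, 250 bases before to 50 after each start) were searched for the CArG box. Its general pattern, though not each single box, is the same on both strands. Windows were found for 39 of the 44 members, and those of Actb, Tagln, Pxn, Synpo and Rock1 were not analysed here. A box was present in 7 of the 39 members, or 15.9% of their 44 windows, against 1.63% of all 32851 windows. The 7 stretches follow 5′ to 3′ on the gene's strand, each box in capitals with up to 25 bases on either side.
Srf: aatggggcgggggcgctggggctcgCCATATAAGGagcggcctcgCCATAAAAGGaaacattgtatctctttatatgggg
Vcl: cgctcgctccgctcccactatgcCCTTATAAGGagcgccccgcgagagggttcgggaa
Myl9: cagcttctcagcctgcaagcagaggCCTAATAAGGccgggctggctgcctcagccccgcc
Cnn2: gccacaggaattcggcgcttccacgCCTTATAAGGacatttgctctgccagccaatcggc
Myl6: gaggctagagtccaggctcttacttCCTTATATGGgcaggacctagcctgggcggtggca
Actg1: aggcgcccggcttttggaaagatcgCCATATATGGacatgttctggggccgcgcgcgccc
Lima1: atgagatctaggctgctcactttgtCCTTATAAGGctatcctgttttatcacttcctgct

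The Srf stretch (chr17:46556190-46556269, minus strand) holds 2 boxes, which begin 82 and 62 bases before the start. The box of Vcl (chr14:20929148-20929205, plus strand) begins 227 bases before its start, that of Myl9 (chr2:156775278-156775337, plus) 161 and that of Actg1 (chr11:120348551-120348610, minus) 90. In Cnn2 (chr10:79988519-79988578, plus), Myl6 (chr10:128493025-128493084, minus) and Lima1 (chr15:99820162-99820221, minus) it begins 56, 50 and 47 bases before. The same letters stand in Vcl, Cnn2 and Lima1. The 7 genes with a box had a median log2 fold change of -0.04, and the 32 without a match in the window -0.09. POS-challenged replicate 3 was also set against the mean of the other 2 POS-challenged libraries. The median was -0.43 log2 units for the 7 (from -0.65 for Vcl to -0.03 for Lima1). It was -0.23 for the 32 (from -0.49 for Cnn1 to 0.48 for Rhob), against 0.002 over all genes. The ranges of the 7 and the 32 overlapped, and the part of SRF in these values was not tested. A box is a match of letters, and whether SRF bound there was not measured. Only an unbroken run of A or T between CC and GG inside the window was counted, so looser or more distant boxes would be missed. The 32 without a match, Acta2 and Cnn1 among them, may hold such boxes.

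Per length, the members ran from Actb down to Synpo2. RPKM values (reads per kb of GENCODE M21 exon, scaled to the reads of the whole table) were 1519 ± 237 in POS-challenged and 1628 ± 80.5 in unchallenged cells for Actb (SD, n = 3 each), the 11th highest of 11931 genes with a length in unchallenged cells. Acta2 came next among the members (1342 ± 150 and 1060 ± 329, the 20th highest), with ranges of mean ± SD that met those of Actb in POS-challenged but not in unchallenged cells. Msn (526 ± 39.1 and 574 ± 35.9) and Tagln (614 ± 68.8 and 563 ± 116) followed and did not differ beyond their spread. From Cfl1 (400.1 ± 17.2 and 435 ± 19.8) through Flna, Actn1, Tpm4 and Pfn1 to Cnn3 (385 ± 14.9 and 365 ± 18.8), the mean ± SD ranges of neighbours met in unchallenged cells, while Myh9 came next below a gap (316 ± 35.2 and 323 ± 17.04). Synpo stood at 52.9 ± 4.01 in POS-challenged and 28.9 ± 2.54 in unchallenged cells. In unchallenged cells this was near the lower end, above only Rock1 (22.0 ± 1.197 and 21.1 ± 2.48), Cnn1 (12.0 ± 1.59 and 9.89 ± 1.91) and Synpo2 (0.16 ± 0.01 and 0.13 ± 0.02). In POS-challenged cells its mean lay above those of further members, from Actg1 (47.8 ± 6.50 there, a range that met that of Synpo) down. The exon lengths are those of all basic GENCODE transcripts of a gene, which may be longer than the isoforms these cells use.

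**Figure D4:**
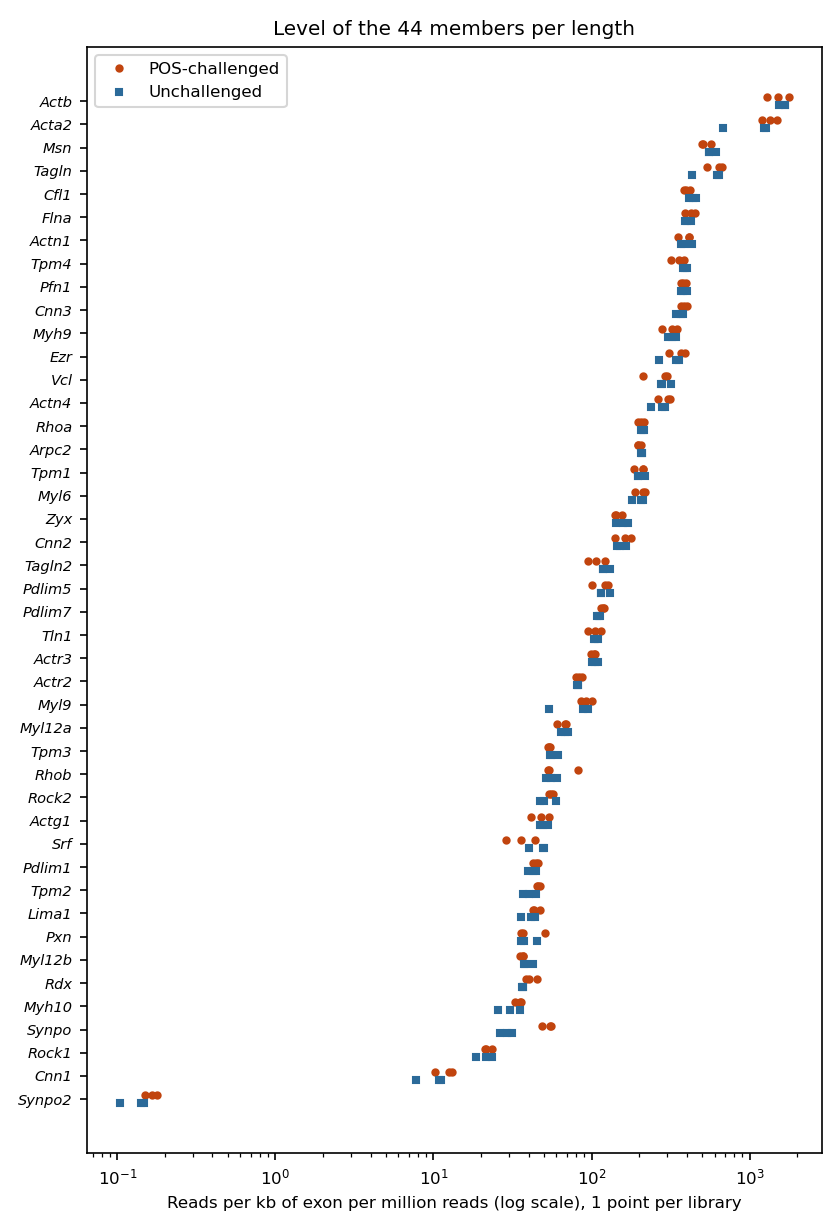
RPKM (reads per kb of exon, scaled to the library's total) on a log axis, 1 point per library; circles are POS-challenged and squares unchallenged libraries, ordered by the unchallenged mean. Actb (1519 and 1628) and Acta2 (1342 and 1060) lead, and Synpo stands at 52.9 in POS-challenged and 28.9 in unchallenged cells.

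Further actin genes were listed by function in 8 groups, and 139 of the 150 were measured. By limma 0 of the 139 passed over all genes and by edgeR 0, and 17 (12.2%) had an unadjusted limma p under 0.05, near the 11.5% of all genes. DESeq2 and the authors' deposited table called 5 each (3.6%), near the 2.73% and 2.55% of all genes with an adjusted p there. Groups did not overlap for 9 that were higher (6.47%) and 20 that were lower (14.4%), against 9.56% and 10.4% of all genes. The 5 genes are given for their values, and nothing is read from their number. The pair of them that was higher are tensins, which cap actin and tie it to integrins. Tns1 had 7592, 7538 and 7139.5 normalized counts in POS-challenged libraries 1, 2 and 3, against 4939, 5909 and 5470.3 in unchallenged ones. Tns2 had 587, 517 and 520.0 in POS-challenged replicates, against 365, 404 and 349 in unchallenged ones. Neither overlapped between groups, and adjusted p in the authors' deposited table was 0.000913 and 0.0028 (limma adjusted p = 0.196 and 0.199). The 3 that were lower came from other groups. Rnd3, the gene of a small GTPase that opposes RhoA and ROCK, had 8771, 9858 and 10288 in POS-challenged replicates, against 12134, 14501 and 12353 in unchallenged ones (authors' deposited adjusted p = 0.0127). Tmsb10, the gene of a monomer-binding thymosin, had 3708, 3957 and 3883 in POS-challenged replicates, against 5409, 4624 and 4567 in unchallenged ones (authors' deposited adjusted p = 0.0383). Ankrd1, a stretch-responsive gene, had 340.1, 345 and 383 in POS-challenged replicates, against 1141, 467 and 578 in unchallenged ones (authors' deposited adjusted p = 0.0276). Unchallenged replicate 1 was the high library for Ankrd1 and Tmsb10.

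By group, the counts in the authors' deposited table were 0 of 19 nucleators and other Arp2/3 genes, 1 lower of 22 genes of capping, severing and monomer binding, and 0 of 15 other bundlers. They were 0 of 17 further contractile genes, 2 higher of 34 adhesion and stress fibre genes, 1 lower of 8 SRF partners, 1 lower of 16 small GTPase genes and their regulators, and 0 of 8 partners of ezrin. Over all genes with an adjusted p, that table called 0.871% as higher and 1.68% as lower. So 0 to 2 calls in groups of this size cannot be set apart from the background. Median log2 fold changes of the 8 groups lay between -0.06 and 0.01. Of the 16 genes that were the 2 most abundant of each group, 13 overlapped between POS-challenged and unchallenged libraries, 2 were lower without overlap (Cdc42 and Arpc1b) and 1 was higher without overlap (Mkl2). Cdc42, the gene of a small GTPase that drives filopodia, had 14929 to 16924 in POS-challenged and 17153 to 18002 in unchallenged libraries. Arpc1b, another subunit gene of the Arp2/3 complex, had 6773 to 9279.8 in POS-challenged and 9367 to 10283 in unchallenged libraries. Among those that overlapped, Cald1, the caldesmon gene, had 76941 to 89078 in POS-challenged and 75015 to 96263 in unchallenged libraries. Itgb1, the beta-1 integrin gene, had 46337 to 61036 in POS-challenged and 60067 to 62440 in unchallenged libraries.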

How the data were processed

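RNA-seq libraries of 3 POS-challenged and 3 unchallenged cultures were aligned to mm10 with GSNAP and compared with DESeq2, per the submitters' processing notes. No source used here gives versions, annotation, counter, strand setting or read length. The deposited signal values are read counts that the authors divided by size factors of 0.901 to 1.10, and 100% of them gave whole reads (within 0.001). The deposited table also holds the authors' own log2 fold changes with standard errors, a test score and p-values, quoted as theirs. Here, log2(value + 1) of genes with a mean of at least 10 was tested with limma 3.58.1 (R 4.3.3) over all genes with Benjamini-Hochberg adjustment at 0.05; edgeR 4.0.16 and DESeq2 1.42.0 ran on the recovered counts and called 11 and 329 genes. Scripts were tested on simulated data. Replicates of a group differed by more than sampling noise (chi-square per degree of freedom 8.58 to 61.8). Members and lists were chosen with earlier results of these data known. Named were all 44 members, listed genes past a threshold here or in the deposited table, and abundant genes per list; Rpe65 was added as a defining marker. Other scalings, pseudocounts, filters, a replicate block and left-out libraries were tried.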

Additional observations from a re-analysis of the deposited data

How the results depend on the processing

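The number of members past the threshold was 1 with all 6 libraries and under quantile normalization, pseudocounts of 0.1 and 5, no filter, a minimum mean of 100, edgeR, DESeq2 and the authors' deposited table. With each library left out in turn it ranged from 0 to 1, and it was 1 without unchallenged replicate 2. With the replicate block it was 0 (Synpo limma adjusted p = 0.224), and without unchallenged replicates 1 and 3 together, chosen after seeing the data, it was 0, with a Synpo log2 fold change of 0.78 in that fit. These fits hold fewer samples or residual degrees of freedom. Whether replicate numbers pair the samples is not known. Deviations of same-numbered libraries correlated at -0.35, 0.17 and 0.17, which cannot settle it, since deviations within a group of 3 sum to 0. The block, with fewer residual degrees of freedom, moved the calls over all genes to 1, against 12 without it. The Synpo log2 fold change stayed positive in every setting run, from 0.73 to 0.89, all on the libraries that chose it. The members' median ranged from -0.11 to 0.02 with each library left out. Of 730 fold changes of the other 43 members over 17 settings, 712 stayed within 1 SD of the replicates and 18 moved by more. Some settings could not move them. All 12556 genes had a mean of at least 10, so no filter gave the same fit as the main one. The replicate block and the minimum mean of 100 also leave a fold change as it is. Further actin genes past the threshold numbered 5 by DESeq2 and 5 in the authors' deposited table, against 0 by limma; the cause was not tested. Genes called over all genes ran from 1 to 120 with each library left out (120 without unchallenged replicate 2), 47 without unchallenged replicate 1 and POS-challenged replicate 3 together, and 0 without unchallenged replicates 1 and 3, where 403 had an unadjusted limma p under 0.05. With 3 libraries a group, small differences of single members were not resolved.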
